A study of Mus musculus with 8 samples.

Results

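The genes described are 36 genes of sterol and fatty acid synthesis and of its control, chosen by symbol as a pathway list. All 36 had a row in the RNA-Seq table of 24303 genes from P14 CD8 T cells. They are 7 enzymes of the mevalonate pathway, 11 enzymes from squalene to cholesterol, 6 genes of sterol regulation, 2 efflux transporters and 10 enzymes of fatty acid synthesis and desaturation. The question was how their RNA differed among T cells that were still being stimulated, cells that had been rested, and cells driven to dysfunction.

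Cells make cholesterol from acetyl-CoA through the mevalonate pathway and a long chain of sterol intermediates. When sterols in the endoplasmic reticulum are low, SCAP escorts the SREBP proteins to the Golgi, where they are cut and released to switch on genes of sterol and fatty acid synthesis, and INSIG proteins hold the complex back when sterols are plentiful. Liver X receptors answer sterol excess and switch on the efflux transporters ABCA1 and ABCG1. Activated T cells are known to turn on both synthesis arms as they grow and divide.

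P14 mice carry a transgenic TCR for the GP33 peptide of LCMV. Splenic CD8 T cells were activated on plates with anti-CD3 and anti-CD28 for 2 days in all 4 conditions and then kept in medium with IL-2 and IL-15. Acute-2d cells received no GP33 after day 2, and Acute-7d cells received GP33 until day 7, and both were then rested in medium free of peptide and collected on day 19. Effector cells were collected on day 7, and the paper labels day 7 Effector cells in its flow cytometry as 7d-stim. T_Dysf cells received GP33 until day 19 with TGF-β1 from day 7 on. So T_Dysf differed from the rested cells in antigen and in TGF-β1 together, and from Effector cells in day as well. Effector and rested cells differed in day and in rest from stimulation together. None of these can be told apart within a comparison. Each condition had 2 libraries of sorted cells. The study calls them biological replicates, but the labels do not say which came from separate mice, so p-values measure the spread between these libraries.

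Sequences upstream of the genes are shown here because genes with a common regulator often have motifs in common near the start. RefSeq windows for GRCm38.p6, running from 250 bases before to 50 bases after the start, were found for 28 of the 36 genes. *Fdps*, *Fdft1*, *Sqle*, *Stard4*, *Abcg1*, *Scd1*, *Scd2* and *Fads1* were not matched. Shown are *Hmgcs1*, whose window alone held the sterol element searched, then *Idi1*, *Cyp51* and *Lss* of the sterol pathway and *Elovl6* and *Fads2* of the fatty acid pathway, which were all higher in T_Dysf than in Acute-7d cells. Letters run 5′ to 3′ on the strand of the gene, and capitals mark a match on either strand to any of 4 motifs. These were TCACNCCAC, the core of the sterol regulatory element, the CCAAT box with exactly those letters, the GC box written GGGCGG, and the palindromic E-box written CACGTG. No matches overlap in these windows. The windows are chr13:119690101-119690400 (plus strand) for *Hmgcs1*, chr13:8885356-8885655 (plus strand) for *Idi1*, chr5:4104648-4104947 (minus strand) for *Cyp51*, chr10:76531355-76531654 (plus strand) for *Lss*, chr3:129532136-129532435 (plus strand) for *Elovl6* and chr19:10101454-10101753 (minus strand) for *Fads2*.
Hmgcs1: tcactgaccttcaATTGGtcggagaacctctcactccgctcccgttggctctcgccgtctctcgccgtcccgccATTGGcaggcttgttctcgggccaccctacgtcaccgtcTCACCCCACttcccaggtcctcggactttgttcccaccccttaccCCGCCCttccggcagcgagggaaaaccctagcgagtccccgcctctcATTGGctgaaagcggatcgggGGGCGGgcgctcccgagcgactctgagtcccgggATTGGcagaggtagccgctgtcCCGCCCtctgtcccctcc
Idi1: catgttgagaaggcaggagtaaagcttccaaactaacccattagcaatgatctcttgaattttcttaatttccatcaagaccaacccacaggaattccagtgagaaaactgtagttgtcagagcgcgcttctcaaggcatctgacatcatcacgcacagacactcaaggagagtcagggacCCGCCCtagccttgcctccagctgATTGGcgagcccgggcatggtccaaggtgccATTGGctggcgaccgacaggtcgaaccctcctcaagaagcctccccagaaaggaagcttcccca
Cyp51: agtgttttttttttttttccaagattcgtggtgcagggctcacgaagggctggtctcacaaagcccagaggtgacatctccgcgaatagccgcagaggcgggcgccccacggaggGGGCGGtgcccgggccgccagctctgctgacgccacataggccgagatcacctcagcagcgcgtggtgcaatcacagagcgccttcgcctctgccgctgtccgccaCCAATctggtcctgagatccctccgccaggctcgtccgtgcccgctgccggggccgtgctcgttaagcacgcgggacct
Lss: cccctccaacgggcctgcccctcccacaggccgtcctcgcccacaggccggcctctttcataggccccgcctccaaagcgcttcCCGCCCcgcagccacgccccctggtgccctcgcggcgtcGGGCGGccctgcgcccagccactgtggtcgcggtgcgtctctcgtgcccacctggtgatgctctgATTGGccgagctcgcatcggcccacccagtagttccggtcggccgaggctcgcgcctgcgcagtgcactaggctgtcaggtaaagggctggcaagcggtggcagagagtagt
Elovl6: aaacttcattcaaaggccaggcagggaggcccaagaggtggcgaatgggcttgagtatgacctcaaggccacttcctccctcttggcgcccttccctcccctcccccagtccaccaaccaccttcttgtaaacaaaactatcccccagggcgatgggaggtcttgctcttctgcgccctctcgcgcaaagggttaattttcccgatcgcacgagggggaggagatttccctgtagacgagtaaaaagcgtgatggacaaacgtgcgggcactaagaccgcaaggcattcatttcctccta
Fads2: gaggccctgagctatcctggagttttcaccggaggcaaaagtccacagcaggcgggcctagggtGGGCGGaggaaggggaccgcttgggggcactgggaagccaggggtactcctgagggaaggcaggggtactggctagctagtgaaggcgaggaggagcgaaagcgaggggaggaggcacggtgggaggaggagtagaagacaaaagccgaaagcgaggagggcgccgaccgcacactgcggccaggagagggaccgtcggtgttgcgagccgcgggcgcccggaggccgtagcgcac
The sterol element match of *Hmgcs1* began 137 bases before the start. This motif was in 1 of the 28 member windows (3.57%) and in 1.44% of the 27025 genes with a window. CCAAT was in 22 of 28 (78.6%) against 41.1% of all genes, GGGCGG in 23 of 28 (82.1%) against 38.2%, and CACGTG in 7 of 28 (25%) against 8.09%. *Elovl6* held none of them. A match is only a match of letters.

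The labelled identity was checked first. *Itgae*, the TGF-β1-induced integrin chain of CD103, was at 40456 and 37825 normalized counts in T_Dysf and between 50.2 and 80.4 in Effector and Acute-7d cells. *Pdcd1* was at 3754 and 4022 in T_Dysf, 4017 and 3043 in Effector and between 352 and 598 in the rested libraries, so it did not set T_Dysf apart from Effector. *Tcf7* was at 161 and 122 in T_Dysf and between 7789 and 18473 in the rested libraries. In Effector *Tcf7* was at 2178 and 8065, so the replicates stood far apart and replicate 2 lay within the rested range. Summed CD8 T cell markers (8 of 8 listed) were between 76628 and 141775 in every library. The other sums were between 1057 and 1636 for CD4 T cells (3 of 3) and 1077 and 4547 for NK cells (4 of 4, highest in Acute-7d). In the CD4 list *Zbtb7b* was between 1041 and 1625, *Foxp3* between 2.15 and 49.5 and *Cd4* between 1.01 and 13.0. In the NK list *Eomes* was between 828 and 3509.8, *Klrb1c* between 243 and 1384, *Ncr1* between 1.78 and 105 and *Klra8* at 8.08 or less. Sums were between 55.8 and 178 for B cells (5 of 5) and 288 and 683 for myeloid cells (7 of 8). They were between 21.3 and 42.6 for erythroid cells (3 of 4) and 17.9 and 55.7 for stromal cells (4 of 4, with *Dcn* at or under 3 reads in every library). The table holds median-ratio normalized counts, and the libraries held 19382147 to 24856195 reads on genes, so that 3 reads were worth 2.59 to 3.35 normalized counts. These floors cover counting error only.

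Some libraries stood apart. The 3 libraries named with the prefix RESUB, both of Effector and Acute-7d replicate 1, had *Xist* between 53.5 and 115 and summed *Ddx3y*, *Kdm5d*, *Eif2s3y* and *Uty* between 4642 and 5581. The other 5 had *Xist* between 21871 and 30427 and a Y-linked sum of 13.8 or less, so the 2 sets of libraries differed in the sex-linked genes that they expressed, and the 2 Acute-7d libraries came from different mice. Every Effector library has the prefix, so in comparisons with Effector the prefix and the sex-linked difference cannot be told apart from the condition, except through the Acute-7d pair. In that pair 20 of the 36 genes were higher in the RESUB library and 16 in the other, with a median difference of 0.04 on the log2 scale. T_Dysf replicate 1 had 139 genes under 3 reads that had at least 50 reads in all other libraries, and 0 of the 36 genes were among them. The median difference between replicates over the 36 genes, on the log2 scale and regardless of sign, was 0.34 in Effector, 0.22 in each rested condition and 0.11 in T_Dysf.

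Most of these genes were highest in Effector cells, and many stood in T_Dysf cells between the rested and the Effector level. In 27 of the 36 both Effector libraries were above the other 6 libraries, which held for 14.6% of all genes. In 20 of the 36 the 4 rested libraries were lowest, the T_Dysf libraries higher and the Effector libraries highest with no overlap, an order found in 4.39% of all genes and in 8.33% of the 12028 genes with a mean of at least 50. These 20 were *Acat2*, *Hmgcs1*, *Mvd*, *Idi1* and *Fdps* of the mevalonate pathway, *Fdft1*, *Sqle*, *Cyp51*, *Msmo1*, *Nsdhl*, *Hsd17b7*, *Ebp*, *Sc5d* and *Dhcr7* of the sterol chain, *Srebf1* of the regulators, and *Acly*, *Acaca*, *Elovl6*, *Scd1* and *Fads2* of the fatty acid enzymes. Without Acute-7d replicate 1 the order held for 21 of 36 (4.77% of all genes), and without T_Dysf replicate 1 for 22 (6.62%). A list of 13 cell cycle genes, given in full further on, took the same order in 13 of 13, and its part in these levels was not tested. These are bulk libraries, in which fewer cells of a type and less RNA per cell cannot be told apart.

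**Figure D1:**
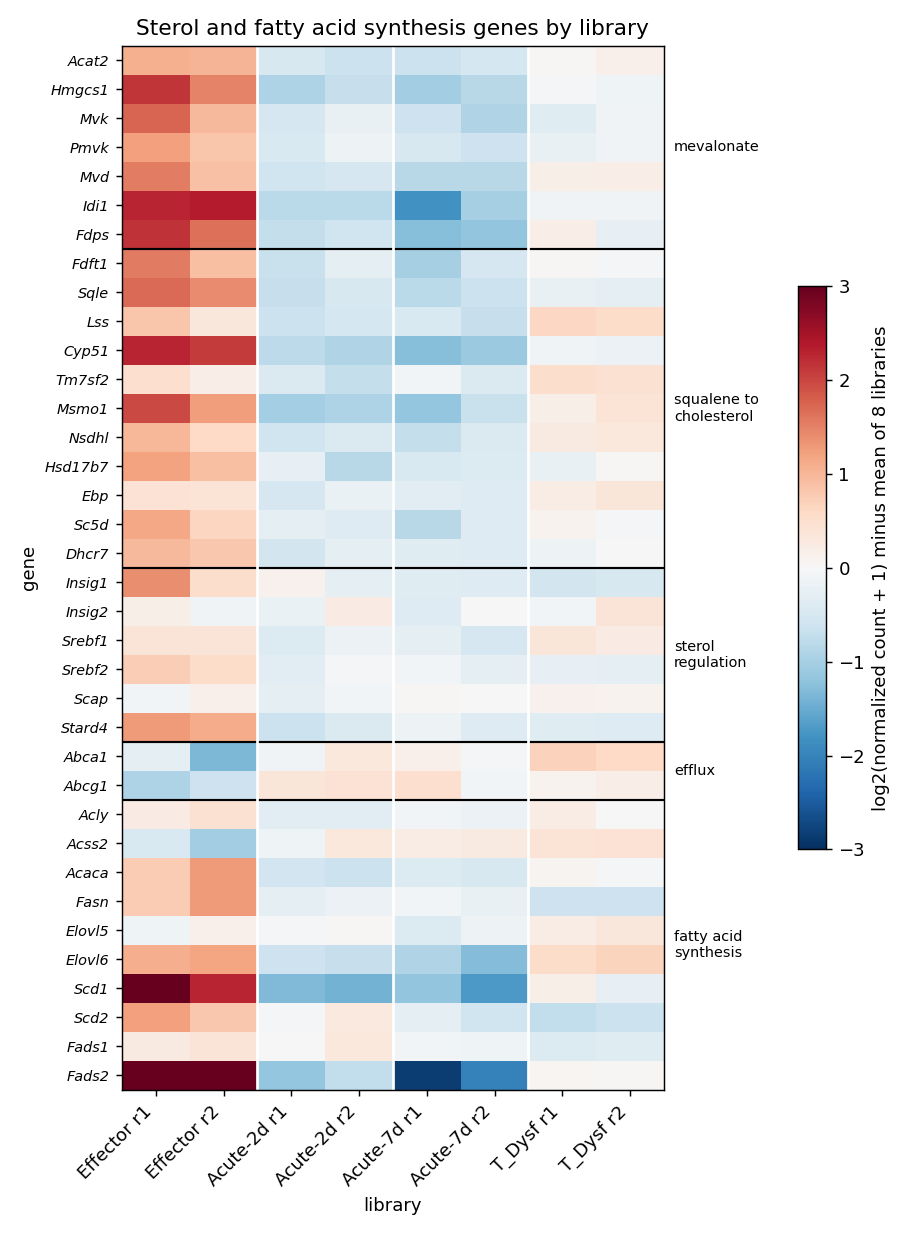
Each row is a gene and each column a library, and colour gives log2(normalized count + 1) minus the mean of the gene over the 8 libraries. Both Effector columns are above all others for 27 of the 36 genes, and the rested columns of these are mostly but not always blue. *Abca1*, *Abcg1* and *Acss2* are lowest in Effector, and *Fasn*, *Scd2* and *Insig1* are lowest in T_Dysf.

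The comparisons used 1 limma fit of all 24303 genes over the 8 libraries, on log2(normalized count + 1), and Benjamini-Hochberg adjustment over all genes. A gene counted as changed if its adjusted p was under 0.05 and its fold change at least 2. Over all genes the median difference was 0.00 in every comparison. The shares given over all genes include many genes with few reads, which are seldom called. Of the 12028 genes with a mean of at least 50, 436 were called higher in T_Dysf than in Acute-7d and 540 than in Acute-2d. Of the same 12028, 891 were called lower in T_Dysf than in Effector. Called higher in Effector were 844 against Acute-7d and 886 against Acute-2d. Differences below are on the log2(normalized count + 1) scale, with the standard error (SE) of the fit and n = 2 libraries per condition, and levels are normalized counts, with replicate 1 given first.

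The mevalonate pathway was the most uniform group. All 7 genes were higher in Effector than in Acute-2d (4.31% of all genes) and in Acute-7d cells (4.18%), 6 of 7 were lower in T_Dysf than in Effector (4.75%), and 2 of 7 were higher in T_Dysf than in Acute-7d (2.54%). *Idi1*, the isomerase that makes dimethylallyl diphosphate, was at 3242 and 3372 in Effector, 611 and 612 in T_Dysf, 374 and 379 in Acute-2d, and 187 and 328 in Acute-7d. Its Effector level was far above every other library, and T_Dysf stood above all rested libraries. The difference was 3.73 ± 0.26 between Effector and Acute-7d (limma adjusted p = 0.00779) and 1.30 ± 0.26 between T_Dysf and Acute-7d (limma adjusted p = 0.0489). The call of T_Dysf against Acute-7d was lost with a pseudocount of 0.1, equal totals, equal 75th percentiles, the replicate block and the RESUB term. It was also lost in most fits that left out a library.

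*Fdps*, which makes farnesyl diphosphate for sterols and for protein prenylation, was at 2914 and 2047 in Effector, 745 and 541 in T_Dysf, 393 and 423 in Acute-2d, and 264 and 285 in Acute-7d. The 4 conditions did not overlap. T_Dysf exceeded Acute-7d by 1.21 ± 0.23 (limma adjusted p = 0.0428) and Acute-2d by 0.64 ± 0.23, which missed the threshold (limma adjusted p = 0.155). The call against Acute-7d was lost with limma-voom, the replicate block, equal totals, equal 75th percentiles and in 6 of 8 fits that left out a library. Of its exon bases 26.7% are shared with *Gm43738* on the same strand, so its reads could have been split. *Hmgcs1*, the HMG-CoA synthase at the entry of the pathway, was at 7708 and 4844 in Effector, 1701 and 1576 in T_Dysf, 914 and 1071 in Acute-2d, and 841 and 977 in Acute-7d. T_Dysf was below Effector by 1.90 ± 0.24 (limma adjusted p = 0.0128), and its 0.85 ± 0.24 above Acute-7d did not pass (limma adjusted p = 0.106).

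*Mvd*, the decarboxylase that makes isopentenyl diphosphate, was at 1129 and 718 in Effector, 441 and 449 in T_Dysf, 258 and 274 in Acute-2d, and 221 and 221 in Acute-7d. T_Dysf was near 2 times the Acute-7d level, at 1.01 ± 0.21, with an adjusted p just over the threshold (limma, 0.0563). *Acat2*, the cytosolic thiolase that joins acetyl-CoA, was at 986 and 943 in Effector, 482 and 523 in T_Dysf, 332 and 300.3 in Acute-2d, and 298 and 324 in Acute-7d. Its T_Dysf level exceeded Acute-7d by 0.69 ± 0.08, a difference with a limma adjusted p of 0.0154 but under 2-fold. The mevalonate kinase *Mvk* was at 756 and 446 in Effector, 174 and 210 in T_Dysf, 159 and 194 in Acute-2d, and 145 and 119 in Acute-7d. The phosphomevalonate kinase *Pmvk* was at 829 and 626 in Effector, 304 and 327 in T_Dysf, 256 and 318 in Acute-2d, and 255 and 230.2 in Acute-7d. For both kinases the T_Dysf and Acute-2d libraries overlapped, and Effector stood apart from every other library.

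The enzymes from squalene to cholesterol were mostly highest in Effector, but the T_Dysf level varied from near the Effector level to near the rested level. Of the 11, 9 were higher in Effector than in each rested condition (4.31% and 4.18% of all genes), 4 were lower in T_Dysf than in Effector (4.75%), and 2 were higher in T_Dysf than in Acute-7d (2.54%). *Cyp51*, the lanosterol demethylase, was at 4582 and 4019 in Effector, 879 and 827 in T_Dysf, 549.8 and 499.8 in Acute-2d, and 385 and 431 in Acute-7d. The conditions did not overlap and the replicates were close. Effector exceeded Acute-7d by 3.39 ± 0.10 (limma adjusted p = 0.000773), and T_Dysf exceeded it by 1.06 ± 0.10 (limma adjusted p = 0.0089).

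*Lss*, the cyclase that closes the sterol rings, differed from this. It was at 1907 and 1349 in Effector, 1649 and 1572 in T_Dysf, 692 and 743 in Acute-2d, and 778 and 664 in Acute-7d. Both T_Dysf libraries lay between the Effector libraries, with a difference of 0.01 ± 0.18. T_Dysf exceeded Acute-7d by 1.16 ± 0.18 (limma adjusted p = 0.028) and Acute-2d by 1.17 ± 0.18 (limma adjusted p = 0.0226). The call against Acute-7d was lost with the RESUB term and in most fits that left out a library. The call against Acute-2d was kept with the RESUB term but lost without any 1 library of either condition. *Tm7sf2*, a sterol reductase, and *Ebp*, a sterol isomerase, also had T_Dysf levels near Effector. *Tm7sf2* had means of 197 ± 28.7 (SD) in Effector, 215 ± 7.17 in T_Dysf, 103 ± 15.2 in Acute-2d and 129.6 ± 23.0 in Acute-7d, and rose in T_Dysf over Acute-2d by 1.06 ± 0.19 (limma adjusted p = 0.0332). *Vps51* shares 12.1% of its exon bases. *Ebp* had means of 1351 ± 14.3 in Effector, 1244 ± 76.4 in T_Dysf, 799 ± 113 in Acute-2d and 797 ± 30.7 in Acute-7d, and none of its differences reached 2-fold.

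*Sqle*, the squalene epoxidase that is a rate-limiting step, was at 3067 and 2545 in Effector, 813 and 791 in T_Dysf, 589 and 679 in Acute-2d, and 540 and 604 in Acute-7d. T_Dysf was 1.80 ± 0.12 below Effector (limma adjusted p = 0.00391) and 0.49 ± 0.12 above Acute-7d, which did not pass (limma adjusted p = 0.085). The squalene synthase *Fdft1* was at 1392 and 884 in Effector, 489 and 466 in T_Dysf, 300.4 and 391 in Acute-2d, and 237 and 335 in Acute-7d. It was called only in the comparisons of Effector with the rested conditions, and 18.3% of its exon bases are shared with *Ctsb* on the opposite strand.

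*Msmo1*, the sterol methyl oxidase, was at 1308 and 792 in Effector, 373 and 443 in T_Dysf, 162 and 173 in Acute-2d, and 147 and 208 in Acute-7d. Its T_Dysf level was above 2 times that of either rested condition, by 1.21 ± 0.30 over Acute-7d and 1.27 ± 0.30 over Acute-2d, yet neither difference passed (limma adjusted p = 0.0772 and 0.0601). The decarboxylating dehydrogenase *Nsdhl* was at 788 and 595 in Effector, 480 and 495 in T_Dysf, 262 and 290.4 in Acute-2d, and 241 and 292 in Acute-7d. T_Dysf exceeded Acute-7d by 0.88 ± 0.17 with a limma adjusted p of 0.0454, under 2-fold.

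A further 3 enzymes were called in T_Dysf against neither rested condition. The sterol ketoreductase *Hsd17b7* was at 787 and 634 in Effector, 292 and 348 in T_Dysf, 285 and 189 in Acute-2d, and 247 and 255 in Acute-7d. The desaturase *Sc5d* was at 1595 and 1114 in Effector, 768 and 688 in T_Dysf, 594 and 541 in Acute-2d, and 399 and 539 in Acute-7d. The reductase *Dhcr7*, which makes cholesterol in the last step of one branch, was at 1069 and 962 in Effector, 492 and 547 in T_Dysf, 372 and 444 in Acute-2d, and 423 and 417 in Acute-7d. In each of them T_Dysf stood above every rested library, but by at most 0.65 ± 0.23 over Acute-7d (*Sc5d*, limma adjusted p = 0.162).

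**Figure D2:**
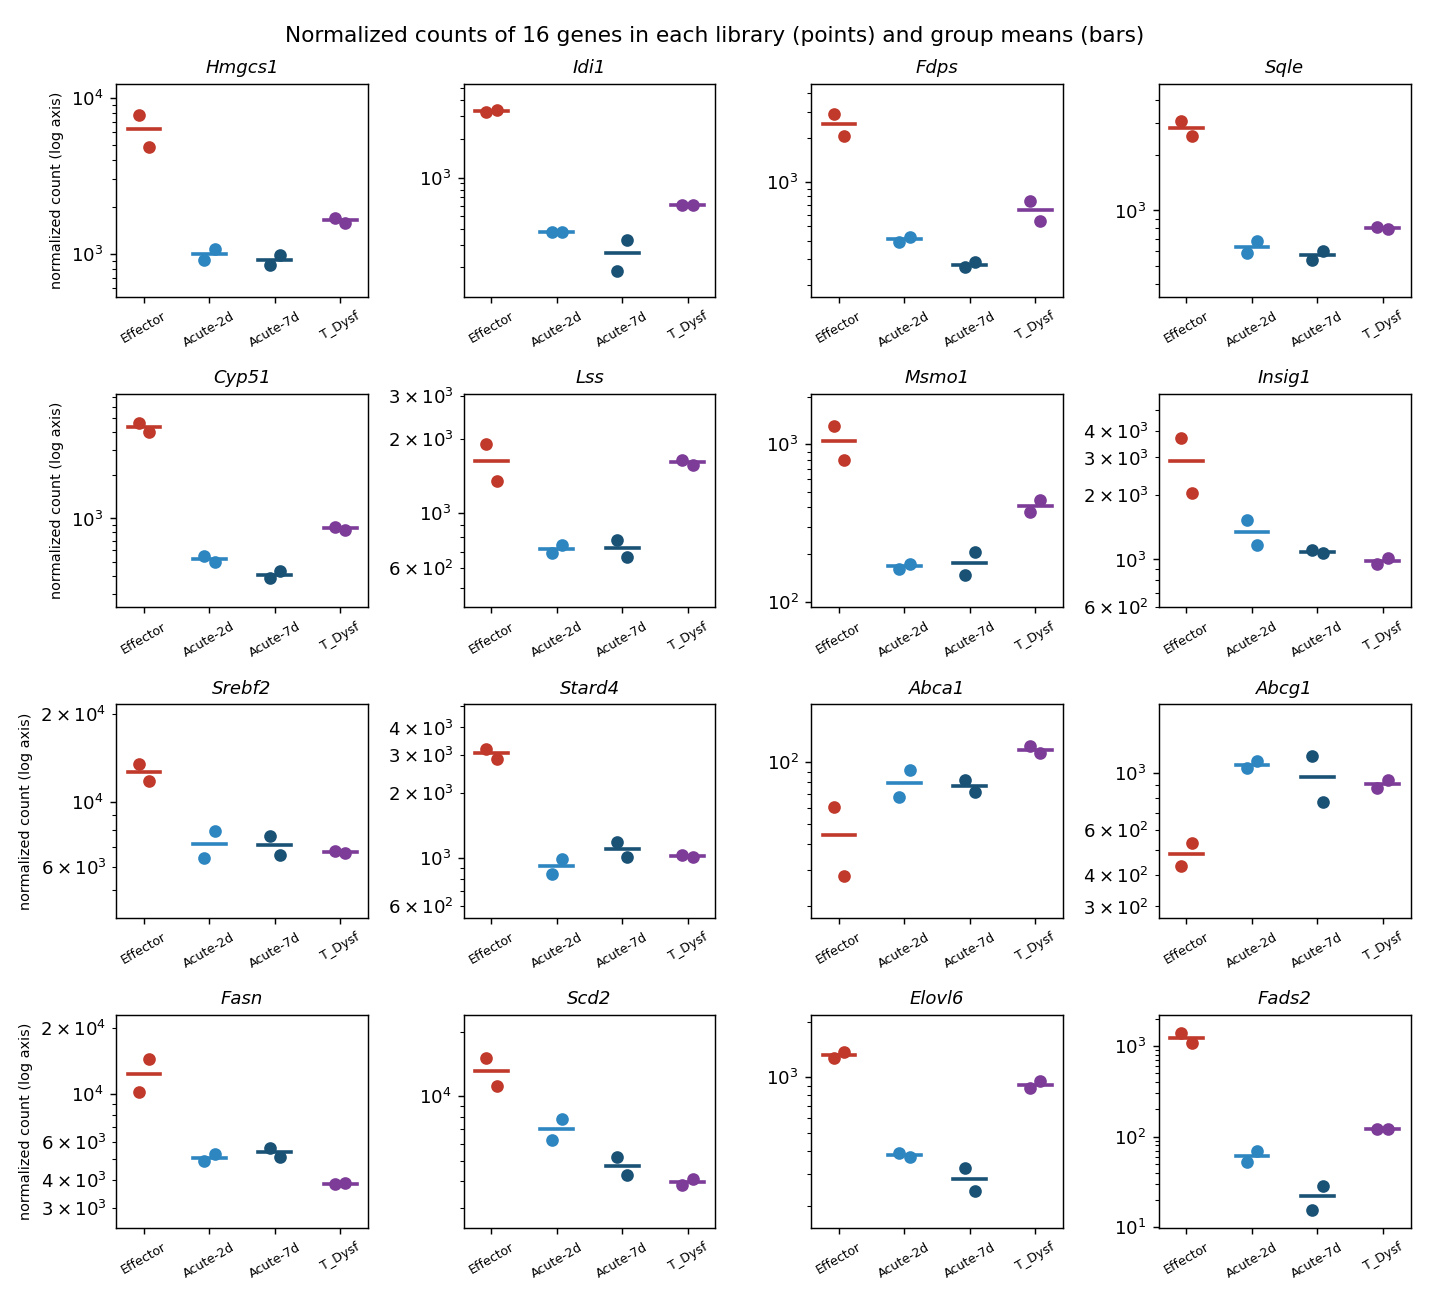
Points are the 2 libraries of each condition and bars their means, in normalized counts on log axes that differ between panels, for 16 of the genes. *Hmgcs1*, *Idi1*, *Fdps*, *Sqle*, *Cyp51*, *Msmo1* and *Fads2* are highest in Effector with T_Dysf above the rested cells, *Lss* is about as high in T_Dysf as in Effector, and *Fasn*, *Scd2* and *Insig1* are lowest in T_Dysf.

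The regulators varied less than the enzymes. *Srebf2*, which encodes SREBP2, the main activator of sterol synthesis genes, was at 13529 and 11776 in Effector, 6802 and 6677 in T_Dysf, 6408 and 7940.3 in Acute-2d, and 7638 and 6563 in Acute-7d. Effector was above the rest, by 0.83 ± 0.14 over Acute-7d (limma adjusted p = 0.0285), under 2-fold, while T_Dysf and the rested libraries overlapped. *Srebf1*, whose products act mainly on fatty acid synthesis genes, was at 3629 and 3627 in Effector, 3600.2 and 3299.6 in T_Dysf, 2105 and 2479.8 in Acute-2d, and 2325 and 1968 in Acute-7d. T_Dysf thus stood near Effector and exceeded Acute-7d by 0.69 ± 0.12 (limma adjusted p = 0.0353), again under 2-fold. *Scap*, the SREBP escort, had means between 2484 ± 236 in Acute-2d and 3051 ± 15.6 (SD) in T_Dysf and passed in no comparison.

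*Insig1*, a retention factor that is itself an SREBP target, was at 3715 and 2040.5 in Effector, 954 and 1015 in T_Dysf, 1529 and 1168 in Acute-2d, and 1102 and 1069 in Acute-7d. T_Dysf was lowest, below every other library, and fell below Effector by 1.48 ± 0.31 (limma adjusted p = 0.0384), while its differences from the rested conditions did not pass. *Insig2* was at 391 and 323 in Effector, 328 and 458 in T_Dysf, 302 and 415 in Acute-2d, and 264 and 344 in Acute-7d, with all conditions overlapping. *Stard4*, a carrier of cholesterol between membranes, was at 3195 and 2874 in Effector, 1033 and 1012 in T_Dysf, 845 and 988 in Acute-2d, and 1188 and 1011 in Acute-7d. It was high in Effector, with T_Dysf 1.57 ± 0.12 below Effector (limma adjusted p = 0.00447) and 0.10 ± 0.12 below Acute-7d.

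The efflux transporters had their lowest levels in Effector cells. *Abca1*, which passes cholesterol to apolipoproteins, was at 60.3 and 28.1 in Effector, 119 and 110.3 in T_Dysf, 67.4 and 91.8 in Acute-2d, and 81.4 and 71.7 in Acute-7d. T_Dysf was above and Effector below all other libraries, but no difference passed with limma, where T_Dysf minus Effector was 1.45 ± 0.40 (limma adjusted p = 0.0766). That difference was called with limma-voom. *Abcg1*, which passes cholesterol to lipoproteins, was at 433 and 534 in Effector, 877 and 944 in T_Dysf, 1047 and 1114 in Acute-2d, and 1167 and 774 in Acute-7d. Effector minus Acute-2d was -1.17 ± 0.22 (limma adjusted p = 0.0321), a call made in 2 of 8 fits that left out a library and lost with the RESUB term and the replicate block. Both Effector libraries were below all others for *Abca1*, *Abcg1* and *Acss2*, 3 of the 36 genes, a smaller share than the 12.7% of all genes.

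The fatty acid genes split. *Elovl6*, which elongates palmitate, was at 1267 and 1365 in Effector, 870.3 and 955 in T_Dysf, 388 and 371 in Acute-2d, and 321 and 243 in Acute-7d. The conditions did not overlap. T_Dysf exceeded Acute-7d by 1.70 ± 0.14 (limma adjusted p = 0.00708) and Acute-2d by 1.26 ± 0.14 (limma adjusted p = 0.0108), and its 0.53 ± 0.14 below Effector did not pass (limma adjusted p = 0.076).

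*Fads2*, the delta-6 desaturase of polyunsaturated fatty acids, had the widest range. It was at 1388 and 1079 in Effector, 123 and 121 in T_Dysf, 52.7 and 70.2 in Acute-2d, and 15.6 and 28.3 in Acute-7d. Effector exceeded Acute-7d by 5.80 ± 0.33 (limma adjusted p = 0.00516), T_Dysf exceeded Acute-7d by 2.48 ± 0.33 (limma adjusted p = 0.0188), and with a pseudocount of 1 these understate the change of so low a gene. *Scd1*, the delta-9 desaturase that makes oleate, was at 1826 and 817 in Effector, 189 and 141 in T_Dysf, 66.3 and 61.5 in Acute-2d, and 72.6 and 49.5 in Acute-7d. Its T_Dysf level was above 2 times the rested levels, yet 1.43 ± 0.44 over Acute-7d did not pass (limma adjusted p = 0.124), and Effector exceeded Acute-7d by 4.32 ± 0.44 (limma adjusted p = 0.013).

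*Scd2*, a second delta-9 desaturase with a similar sequence, and *Fasn*, the fatty acid synthase, took another order. *Scd2* was at 15098 and 11152 in Effector, 3849.8 and 4087 in T_Dysf, 6251 and 7795 in Acute-2d, and 5193 and 4259 in Acute-7d. *Fasn* was at 10169 and 14379 in Effector, 3856 and 3874 in T_Dysf, 4888 and 5263 in Acute-2d, and 5598 and 5144 in Acute-7d. In both, T_Dysf was below every other library, and it fell below Effector by 1.71 ± 0.20 in *Scd2* (limma adjusted p = 0.0112) and by 1.65 ± 0.17 in *Fasn* (limma adjusted p = 0.00884). Against Acute-7d the differences were -0.25 ± 0.20 and -0.47 ± 0.17 and did not pass. With *Insig1* and *Fads1* these made 4 of the 36 genes with T_Dysf below all other libraries, a share no larger than the 12.0% of all genes.

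*Acaca*, the acetyl-CoA carboxylase that makes malonyl-CoA, was at 1555 and 2236 in Effector, 975 and 895 in T_Dysf, 610.2 and 586 in Acute-2d, and 694 and 653 in Acute-7d. Effector exceeded Acute-7d by 1.47 ± 0.18 (limma adjusted p = 0.0166), and T_Dysf stood above the rested libraries without passing. *Acss2*, which makes acetyl-CoA from acetate, had means of 626 ± 179 (SD) in Effector, 1372 ± 12.6 in T_Dysf, 1105 ± 241 in Acute-2d and 1213 ± 23.9 in Acute-7d. It was called higher in T_Dysf than in Effector, by 1.16 ± 0.24 (limma adjusted p = 0.0384), but in only 1 of 8 fits that left out a library, and not with the RESUB term or the replicate block. *Acly*, which makes acetyl-CoA from citrate, had means from 4014 ± 8.41 in Acute-2d to 6479 ± 703 in Effector, with 5512 ± 533 in T_Dysf. The elongase *Elovl5* had means from 2424 ± 302 in Acute-7d to 3565 ± 213 in T_Dysf, and the delta-5 desaturase *Fads1* from 515 ± 6.03 in T_Dysf to 845 ± 46.3 in Effector. These last 3 were called in no comparison.

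T_Dysf was compared with Acute-7d to set continued antigen with TGF-β1 against antigen that ended on day 7. *Idi1*, *Fdps*, *Lss*, *Cyp51*, *Elovl6* and *Fads2* were higher in T_Dysf, 6 of 36, where 2.54% of all genes were called higher. No member was called lower, where 3.03% of all genes were, and limma gave 9 higher and 0 lower when the fold limit was kept and p was left unadjusted. The median over the 36 genes was 0.57, with 29 above 0 and 7 below. With a term for the RESUB prefix *Elovl6* was the only call. Leaving out Acute-7d replicate 1, the RESUB library of the pair, left *Elovl6* as the only call, with differences of 0.90 for *Idi1*, 1.15 for *Fdps*, 1.28 for *Lss*, 0.98 for *Cyp51*, 1.90 for *Elovl6* and 2.07 for *Fads2*. The count also dropped without T_Dysf replicate 1 (1 called), T_Dysf replicate 2 (2), Acute-2d replicate 1 (3) or Acute-2d replicate 2 (3), and *Elovl6* was called in 8 of 8 fits without a library but not in a fit of these 2 conditions alone.

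Against Acute-2d, neither of whose libraries has the RESUB prefix, *Lss*, *Tm7sf2* and *Elovl6* were higher in T_Dysf, 3 of 36, with 3.14% of all genes called higher. The share called lower was 4.21% of all genes and 0 of 36 members, and 0 at an unadjusted p with the same fold and 0 with limma-voom. The median over the 36 genes was 0.47, with 30 above 0. Both comparisons use the same T_Dysf libraries, so their values are given side by side and were not counted as separate evidence. In 26 of the 36 genes both T_Dysf libraries were above all 4 rested libraries, which held for 20.3% of all genes, and for 27 of 36 (22.5% of all genes) without Acute-7d replicate 1. No member was called in T_Dysf against Acute-2d without Acute-2d replicate 1, Acute-2d replicate 2 or T_Dysf replicate 1, and 1 without T_Dysf replicate 2.

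In T_Dysf against Effector cells 16 of 36 genes were called lower and 1, *Acss2*, higher, while limma-voom called 18 lower and 2 higher, *Acss2* and *Abca1*. The 16 were *Hmgcs1*, *Mvk*, *Pmvk*, *Mvd*, *Idi1*, *Fdps*, *Sqle*, *Cyp51*, *Msmo1*, *Hsd17b7*, *Insig1*, *Stard4*, *Fasn*, *Scd1*, *Scd2* and *Fads2*. Of all genes 4.75% were called lower and 4.47% higher in this comparison. The median over the 36 genes was -0.98, and the largest differences were -3.32 ± 0.33 in *Fads2*, -2.90 ± 0.44 in *Scd1* and -2.43 ± 0.26 in *Idi1*. With a term for the RESUB prefix 3 were called, *Idi1*, *Cyp51* and *Fads2*, all lower in T_Dysf. Without T_Dysf replicate 1 the count was 4, without T_Dysf replicate 2 it was 9, and without either Acute-7d library it was 11.

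Effector cells, compared with rested cells, had the widest change. Against Acute-7d 23 of 36 genes were higher and 0 lower, with 4.18% of all genes called higher and 3.88% lower. Against Acute-2d 22 were higher and 1, *Abcg1*, lower, with 4.31% and 4.48% of all genes. The 22 are all 7 mevalonate genes, *Fdft1*, *Sqle*, *Lss*, *Cyp51*, *Msmo1*, *Nsdhl*, *Hsd17b7*, *Sc5d*, *Dhcr7*, *Stard4*, *Acaca*, *Fasn*, *Elovl6*, *Scd1* and *Fads2*, and *Scd2* joined them against Acute-7d. The medians over the 36 genes were 1.47 against Acute-7d and 1.31 against Acute-2d. With a term for the RESUB prefix 13 were higher and *Abcg1* lower against Acute-7d, and 6 were higher against Acute-2d. Against Acute-7d the count was 8 without Acute-7d replicate 1, 14 without replicate 2 and 15 without either T_Dysf library, and against Acute-2d it was 10 without Acute-2d replicate 1 and 13 without replicate 2.

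Acute-7d and Acute-2d cells differed in none of the 36 genes, where 0.0782% of all genes were called higher in Acute-7d and 0.0905% lower. With an unadjusted p under 0.05 and a fold of at least 2, limma gave 1 gene, *Fads2*, lower in Acute-7d by 1.49 ± 0.33 (limma adjusted p = 0.411), and limma-voom called 0. The median over the 36 genes was -0.11. The following 9 members were called in no comparison: *Ebp*, *Insig2*, *Srebf1*, *Srebf2*, *Scap*, *Abca1*, *Acly*, *Elovl5* and *Fads1*.

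**Figure D3:**
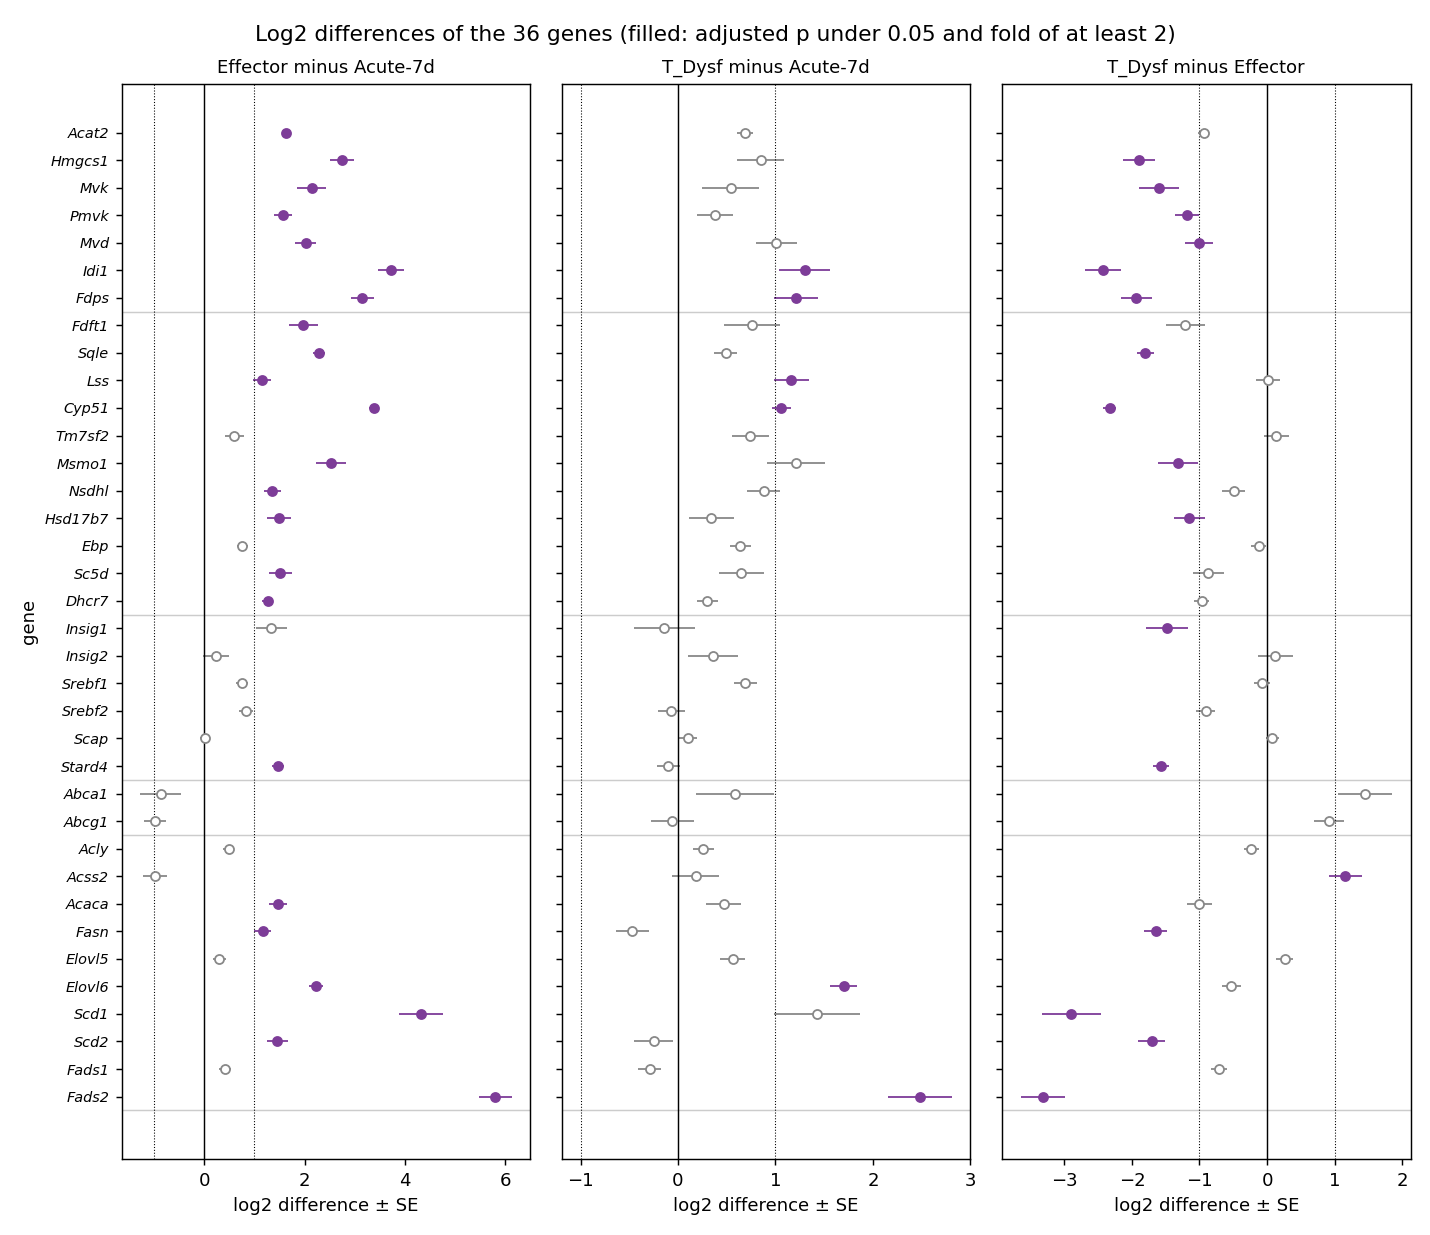
Points are log2 differences of the 36 genes with their SE (n = 2 libraries per condition), filled where the adjusted p was under 0.05 and the fold at least 2, and dotted lines mark 2-fold. Filled points number 23 for Effector minus Acute-7d, 6 for T_Dysf minus Acute-7d and 17 for T_Dysf minus Effector.

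Other genes of the pathway were counted list by list. Of 8 further sterol synthesis genes, 2 were higher in T_Dysf than in Acute-7d (2.54% of all genes). They were the NADPH reductase *Por* (2369.7 and 2396 in T_Dysf, 978 and 976 in Acute-7d) and the scaffold *Erg28* (747 and 725, against 290.1 and 391). Without Acute-7d replicate 1, *Por* and *Erg28* were no longer called against Acute-7d.

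Of 9 further genes around SREBP control, *Mylip*, a sterol-responsive ubiquitin ligase that liver X receptors switch on, was at 168 and 127 in Effector, 212 and 241 in T_Dysf, 849.9 and 570 in Acute-2d, and 743 and 471 in Acute-7d. The rested libraries were above all others. T_Dysf was below Acute-2d, with a difference of -1.62 ± 0.32 (limma adjusted p = 0.0393), and Effector was below Acute-2d, at -2.24 ± 0.32 (limma adjusted p = 0.0184).

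Of 13 cell cycle genes, 13 were higher in Effector than in Acute-7d (4.18% of all genes) and 9 in Effector than in Acute-2d (4.31%). In T_Dysf against Acute-7d limma called 0 of 13 and limma-voom 0, although 13 of 13 were above 0 with a median of 1.82 and 10 had an unadjusted p under 0.05. *Mki67*, a marker of cycling cells, was at 16144 and 28620.2 in Effector, 6848 and 6734 in T_Dysf, 3050 and 1817 in Acute-2d, and 1096 and 3371 in Acute-7d. The Acute-7d libraries stood far apart in this list, with a median of -1.14 and 0.33 relative to the Acute-2d mean. Their medians were -0.27 and -0.27 for mevalonate, -0.18 and -0.03 for the sterol chain and -0.05 and -0.21 for fatty acid enzymes. Effector replicate 1 had the lower cell cycle median (2.55 against 3.13) and the higher mevalonate median (2.10 against 1.58). Its median was also higher for the sterol chain (1.51 against 1.24) and lower for fatty acid enzymes (1.06 against 1.15). The part of cell cycle in the lipid gene levels was not tested.

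**Figure D4:**
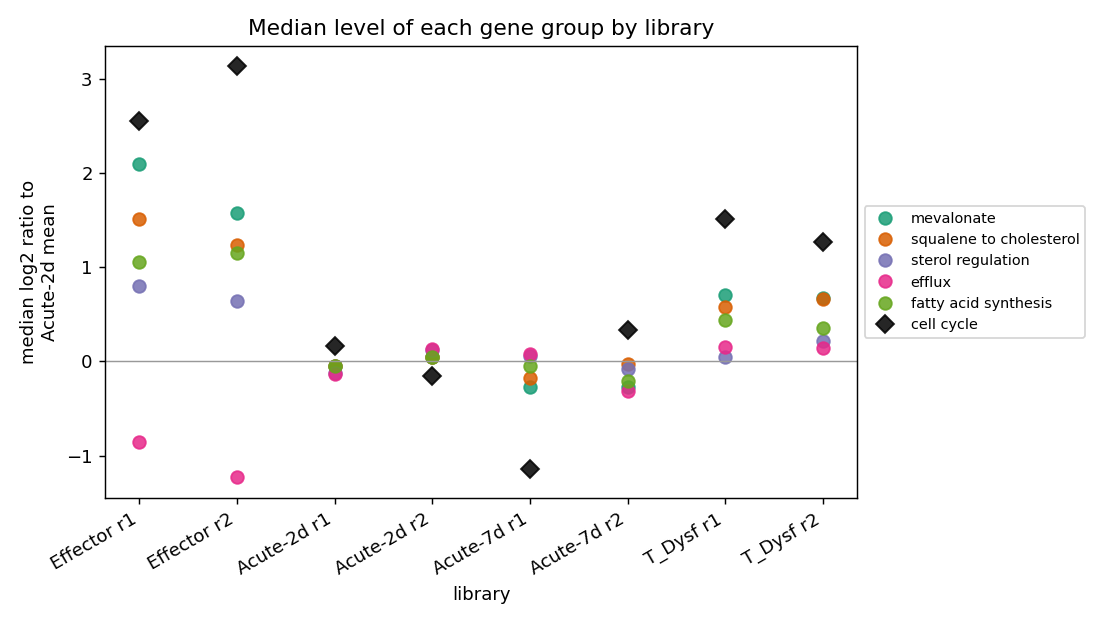
Points give, for each library, the median over the genes of a group of the log2 ratio to the Acute-2d mean, and diamonds the 13 cell cycle genes. Mevalonate medians are 2.10 and 1.58 in Effector, 0.70 and 0.67 in T_Dysf and -0.27 in both Acute-7d libraries, and the efflux pair is below 0 in Effector.

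Levels per kb of merged exon rank genes against each other only roughly. The merged exons were those of all GENCODE transcripts of a gene, while the reads were quantified to RefSeq transcripts. Long merged lengths, such as 17074 bases for *Acaca* and 10787 for *Lss*, lower the level per kb. The shared exon bases given above come from the same GENCODE gene models. In Effector the highest of the 36 were *Scd2* at 2402 normalized counts per kb, *Srebf2* at 1761 and *Hmgcs1* at 1366. In T_Dysf they were *Acly* at 1044, *Elovl5* at 1012 and *Srebf2* at 938, with *Hmgcs1* at 357 at rank 8 and *Scd2* at 726 at rank 4. *Abca1* was the lowest in both, at 4.27 and 11.1. *Fads2* ranked 19 of 36 in Effector, at 374 per kb, and 34 of 36 in T_Dysf, at 37.0.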

How the data were processed

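RNA of sorted P14 CD8 T cells was poly(A)-selected and sequenced, with 2 libraries in each of 4 conditions. The authors aligned reads to mm10 with STAR and quantified them to RefSeq transcripts in Partek Flow. Strand settings are not given in the sources used here. The deposited values are a signal: estimated gene counts that the authors divided by median-ratio size factors of DESeq2. Their methods name a filter on genes with a maximum under 50, but the table of 24303 genes holds lower ones. Taking as 1 read the low value that a library held most often, between 51.0% and 74.9% of values were whole multiples of it (within 0.01 of a read), so whole reads were not recovered and no count model was fitted.

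Genes were tested with limma 3.58.1 (lmFit, eBayes with trend) in R 4.3.3 on log2(value + 1), two-sided, with no filter, 4 group means and 4 residual degrees of freedom. A change needed an adjusted p under 0.05 and at least 2-fold. The code was tested on simulated data. Alternatives were a pseudocount of 0.1 or 10, only genes with a maximum, or a mean, of at least 50, equal 75th percentiles, equal totals, a fit of 2 groups, a replicate block, a RESUB term, limma-voom, an unadjusted p, no fold threshold, and leaving out each of 8 libraries. Orders of conditions without Acute-7d or T_Dysf replicate 1 were added after seeing the data. The check for pairing set the differences between replicates of 1 condition against those of another: across 12028 genes, which are not independent replicates, correlations ran from -0.199 to 0.197, so the numbers were not taken as pairs.

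The 36 genes and the other lists (other sterol synthesis, SREBP control, trafficking and esterification, liver X receptors and partners, other fatty acid and lipid synthesis, cell cycle, cell type markers) were chosen with earlier results of these data known. Each of the 36 is named. All 8 values are given for those called in T_Dysf against Acute-7d or in at least 2 comparisons and for the main regulators and enzymes, and the rest are given by means. Genes of other lists are named if called against Acute-7d or in at least 2 comparisons, and others are named to check labels and sex. *Mki67* stands for its list. Some genes that the rule names are left out of this report. Python 3.11.15 (pandas 2.3.3, numpy 2.4.6, matplotlib 3.10.9) made the tables and plots.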

Additional observations from a re-analysis of the deposited data

How the results depend on the processing

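Of 36 genes, 6 were called in T_Dysf against Acute-7d, 3 against Acute-2d and 17 against Effector, 0 in Acute-7d against Acute-2d, 23 in Effector against Acute-2d and 23 against Acute-7d, and no called gene changed direction under any alternative. In that order of comparisons, a fit of the 2 groups compared gave 3, 3, 5, 0, 5 and 2, and a RESUB term 1, 3, 3, 0, 6 and 14. For T_Dysf against Acute-7d, equal 75th percentiles gave 3 and no fold threshold 10. For T_Dysf against Acute-2d keeping genes with a maximum of at least 50, or a mean of at least 50, gave 5, an unadjusted p 5 and no fold threshold 9. For Acute-7d against Acute-2d an unadjusted p gave 1. Leaving out 1 library gave 1 to 7, 0 to 4, 4 to 16, 0 to 1, 10 to 22 and 8 to 23, with the lone library assumed to vary like the other groups. Of the genes called with all libraries, 4 to 6, 2 to 3, 13 to 17, 0, 21 to 23 and 22 to 23 kept their direction and a fold of at least 2. The cause of the other changes was not tested. With limma-voom the counts were 5, 3, 20, 0, 23 and 23. With the replicate block, whose numbers did not pair the libraries, the counts were 4, 3, 12, 0, 19 and 23. Depth limits *Fads2*, *Scd1* and *Abca1* in rested cells, where values were as low as 15.6, and *Abca1* in Effector cells, at 60.3 and 28.1.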

Other observations

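*Npc1*, *Soat1* and *Soat2*, which move and store cholesterol, were highest in T_Dysf cells. Of 10 genes of sterol trafficking and esterification, 2 were called higher in T_Dysf than in Acute-7d (2.54% of all genes), 3 than in Acute-2d (3.14%) and 3 than in Effector cells (4.47%). The list did not move as a whole, with 7 of 10 above 0 and 3 below against Acute-7d. *Npc2* was at 6841 and 7505 in T_Dysf and between 8782 and 12955 in the rested libraries. *Gramd1b* was at 2381 and 2266 in T_Dysf and between 2978 and 4631 in the rested libraries. *Npc1*, which exports cholesterol from lysosomes, was at 4097 and 4292 normalized counts in T_Dysf, 1767 and 1955 in Effector, 1439 and 1636 in Acute-2d, and 1717 and 2073 in Acute-7d. It exceeded Effector by 1.17 ± 0.12 (SE, log2 scale, limma adjusted p = 0.0087) and Acute-7d by 1.15 ± 0.12 (limma adjusted p = 0.0114). *Soat1*, which esterifies cholesterol for storage, was at 2649 and 2833 in T_Dysf, 1105 and 989 in Effector, and between 1251 and 1607 in the rested libraries. It exceeded Effector by 1.39 ± 0.14 (limma adjusted p = 0.00803) and missed 2-fold against Acute-7d, at 0.95 ± 0.14 (limma adjusted p = 0.0233). *Soat2*, a second enzyme of this kind, was at 1351 and 1036 in T_Dysf and between 462 and 664 in the other 6 libraries, and exceeded Acute-7d by 1.08 ± 0.22 (limma adjusted p = 0.049), a call lost without Acute-7d replicate 1.

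*Rxra*, a partner of the liver X receptors, was at 14.7 and 37.4 in T_Dysf, 57.6 and 146 in Effector, 321 and 284 in Acute-2d, and 340.3 and 389 in Acute-7d. It was the only 1 of 7 genes of its list called, where 3.03% of all genes were called lower in T_Dysf than in Acute-7d. T_Dysf minus Acute-7d was -3.89 ± 0.61 in *Rxra* (limma adjusted p = 0.0276), a call lost without Acute-7d replicate 1. Of 22 further genes of fatty acid and lipid synthesis, 1 was called lower in T_Dysf than in Acute-7d, *Acsl3*, an acyl-CoA synthetase, where 3.03% of all genes were, and this call too was lost without Acute-7d replicate 1. It was at 4.32 and 1.78 in T_Dysf, near the floor of 3 reads, 254 and 287 in Effector, 58.2 and 55.1 in Acute-2d, and 45.7 and 37.4 in Acute-7d. *Me1*, the malic enzyme that makes NADPH, was at 38.0 and 48.2 in Effector and between 5.58 and 13.0 elsewhere, and the elongase *Elovl7* was between 55.5 and 69.2 in rested and between 15.0 and 25.6 in the other libraries. For *Elovl7* the Effector and T_Dysf libraries overlapped.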
